A study of Homo sapiens with 16 samples.

Results

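Keratin genes were taken as every protein-coding gene whose symbol is KRT followed by a number, which leaves out the keratin-associated protein genes (KRTAP) and the KRTCAP genes. Of 19404 protein-coding genes in the count tables, 55 were keratins, 29 of type I and 26 of type II. A keratin counted as measured in a serum condition where its 8 libraries together held 10 or more counts. In low serum 22 keratins passed this filter. In standard serum 23 passed, which made 26 in either condition and 19 in both. The 29 that passed in neither had at most 9 counts over the 8 libraries of a condition, and 1 of them had 0 counts in all 16 libraries. Some weakly expressed keratins passed through a single cell line, so the number that passed says nothing by itself about differences between groups.

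Keratins are the intermediate filament proteins of epithelial cells. A keratin filament is built from pairs of an acidic type I chain and a basic type II chain, and the pair depends on the epithelium. KRT8 with KRT18, often beside KRT7 and KRT19, is typical of simple epithelia such as the luminal cells of the breast, KRT5 with KRT14 of basal cells, KRT6 with KRT16 and KRT17 of injured epithelium, and the hair keratins of the hair shaft. Mesenchymal cells build their filaments mainly from vimentin (VIM), and breast cancer cells of mesenchymal type often hold both kinds of filament.

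The libraries came from MDA-MB-231 and MDA-MB-436, a pair of established human triple-negative breast cancer cell lines of mesenchymal type. Both lines carried the stably transfected 7TGP reporter, in which Tcf/Lef binding sites drive eGFP beside a puromycin resistance cassette. Each line was sorted by eGFP, over 7 repeated sorts, into a reporter-positive subline (7TGP-POS, Wnt-positive) and a reporter-negative one (7TGP-NEG, Wnt-negative). The sublines are sorted populations and not clones, and not every cell of a 7TGP-POS subline was eGFP-positive. Each subline was grown with 0.5% FBS and taken on day 3 (low serum) or grown with 10% FBS and taken on day 6 (standard serum), with 2 biological replicates in each of the 8 groups. The study's methods name a different medium for each line and the sample labels name the same one for both, so medium and cell line may not be separable. The serum conditions also differed in days of culture, library preparation and sequencer, so they are set side by side and were not tested against each other.

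The libraries held 27918418 to 32667756 counted reads in low serum. The range was 31827130 to 46044073 in standard serum. Replicates of a group correlated at 0.994 to 0.998 across genes (Pearson's r on log2 values, where genes are not independent replicates), and the pair of MDA-MB-436 7TGP-POS libraries from standard serum differed most in its counts. Each of 8 mesenchymal marker genes reached 1 TPM (transcripts scaled per length and per library) in at least 1 library of each serum condition, but CDH2 and TWIST1, and SPARC in low serum, stayed below 1 TPM in every MDA-MB-231 library. Their sum lay between 598 and 4318 TPM. The 10 epithelial markers summed to between 12.7 and 175 TPM, and CDH1, GRHL2 and RAB25 stayed below 1 TPM in every library.

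KRT81 and KRT86, paralogs in a cluster of hair keratin genes on chromosome 12, were the keratins that rose most in MDA-MB-231 7TGP-POS cells among those above 1 CPM (counts scaled by library size). On GRCh37 (hg19), KRT81 (ENSG00000205426) lies on the minus strand at chr12:52679697-52685318, inside the span of KRT86 (ENSG00000170442) on the plus strand at chr12:52643084-52702947. Their exons do not overlap. KRT83, another hair keratin, lies beside them on the minus strand at chr12:52708085-52715182.

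Over the 7 internal coding exons, 910 bases in all, KRT86 was 97.0% and KRT83 94.9% identical to KRT81. Of all 100-base windows of the KRT81 transcript, 29.4% occurred without a mismatch in KRT86, and 25.0% of those of KRT86 occurred in KRT81. A 100-base stretch of a read inside such a window matches both genes. The study's methods describe paired reads, so a mate or a longer read can still tell the genes apart. The shares show how alike the transcripts are, and how far the values are uncertain was not tested. KRT18 shared 18.5% of its windows with KRT8, whose exons overlap those of KRT18 on the opposite strand over 525 bases. KRT6A shared 18.2% of its windows, mainly with KRT6C. The share was 7.12% for KRT16, 7.12% for KRT8, all of it with pseudogenes, and 6.05% for KRT14. KRT7, KRT10, KRT15, KRT19, KRT79 and KRT80 shared none.

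Keratin transcripts were abundant in both mesenchymal lines, and most of the total came from simple epithelial keratins. In low serum all keratins summed to 1451 ± 74.2 TPM (mean ± SD, n = 2) in MDA-MB-231 7TGP-NEG and 1006 ± 86.4 TPM in 7TGP-POS cells. The sums in MDA-MB-436 were 654 ± 37.7 and 636 ± 15.5 TPM. In standard serum they were 2076 ± 95.8 and 1996 ± 54.8 TPM in MDA-MB-231, and 887 ± 21.0 and 1028 ± 110.4 TPM in MDA-MB-436. MDA-MB-231 thus held a larger share of keratin transcripts than MDA-MB-436 in every library. KRT7, KRT8, KRT18 and KRT19 together made up 84.1% to 97.1% of keratin TPM in the low serum libraries and 72.1% to 94.7% in those from standard serum.

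Only 12 of the 55 keratins had a mean of at least 1 TPM in any group, and each group had 8 to 10 such genes. They were the simple epithelial KRT7, KRT8, KRT18 and KRT19, the basal KRT15, the wound and stress keratins KRT16 and KRT17, the suprabasal KRT10, the hair keratins KRT34, KRT81 and KRT86, and KRT80. By class, 4 of 5 simple epithelial, 3 of 3 basal, 3 of 5 wound and stress, 2 of 10 suprabasal, mucosal and corneal, 8 of 17 hair, 2 of 9 hair follicle sheath and 4 of 6 other keratins passed the count filter in either condition.

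**Figure D1:**
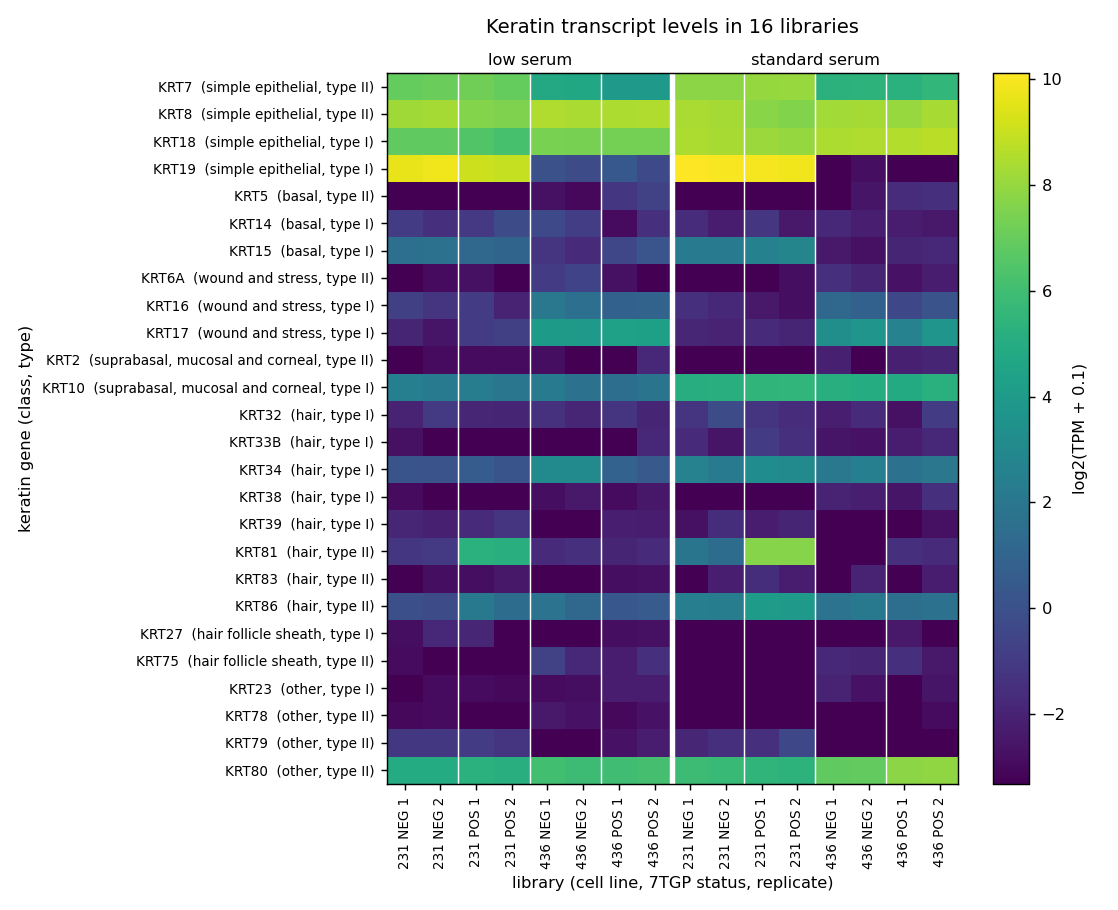
Transcript level of the 26 keratins that passed the count filter in either serum condition, as log2(TPM + 0.1) in each of 16 libraries, with genes ordered by class (vertical axis) and libraries by serum, cell line, 7TGP status and replicate (horizontal axis). KRT8, KRT18 and KRT80 are high in every library, KRT19 is high in MDA-MB-231, and KRT81 is high in the 4 MDA-MB-231 7TGP-POS libraries.

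Keratins that met the study's definition of a differentially expressed gene (DEG) were counted between 7TGP-POS and 7TGP-NEG cells. A DEG has an adjusted p under 0.05 and a log2 fold change of 1 or more in either direction. Levels within a gene are given as TMM-normalised CPM, fold changes as log2 ± SE, and adjusted p-values are those of edgeR over all protein-coding genes tested. In MDA-MB-231, 3 of 22 keratins (13.6%) were DEGs in low serum, against 5.9% of all genes tested. All 3 were higher in 7TGP-POS cells and none lower, against 3.5% of all genes higher and 2.4% lower. In standard serum 2 of 23 (8.7%) were DEGs, against 7.69% of all genes. Both of them were higher, against 4.96% higher and 2.72% lower over all genes.

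In MDA-MB-436, 6 of 22 keratins (27.3%) were DEGs in low serum, against 10.5% of all genes. Of these, 3 were higher in 7TGP-POS cells and 3 lower, against 6.52% and 4.03% of all genes. In standard serum 4 of 23 (17.4%) were DEGs, against 12.5%, with 3 higher and 1 lower, against 6.47% and 6.06%. By the adjusted p alone, 9 of 22 (against 38.9% of all genes) and 9 of 23 (against 33%) changed in MDA-MB-231 in low and standard serum. The same counts in MDA-MB-436 were 13 of 22 (against 52%) and 6 of 23 (against 49.5%). The median log2 fold change of the tested keratins was 0.12 and 0.17 in MDA-MB-231 and 0.22 and -0.01 in MDA-MB-436, beside medians over all genes of -0.01 to 0.01. In bulk RNA, fewer cells of a type and less RNA per cell cannot be told apart.

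KRT81, a type II keratin of the hair cortex, was the keratin with the largest rise. In low serum its level was 0.296 and 0.341 CPM in MDA-MB-231 7TGP-NEG and 36.4 and 38.6 CPM in 7TGP-POS libraries. Standard serum gave 2.10 and 1.51 CPM and 118 and 117 CPM. These 4 MDA-MB-231 7TGP-POS libraries stood apart from all others of their condition. The log2 fold change was 6.86 ± 0.17, adjusted p = 6.74e-30 in low serum and 6.01 ± 0.13, adjusted p = 1.75e-15 in standard serum. Per length, KRT81 went from 0.330 and 0.390 TPM to 38.5 and 35.2 TPM in low serum and from 3.66 and 2.58 TPM to 208 and 209 TPM in standard serum. In the latter libraries KRT8 was at 212 and 189.8 TPM, so the hair keratin had reached the range of a main simple epithelial keratin.

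In MDA-MB-436, KRT81 stayed close to the detection limit. Low serum gave 4 and 5 counts in 7TGP-NEG and 4 and 4 counts in 7TGP-POS libraries (-0.14 ± 0.65, adjusted p = 0.893). Standard serum gave 0 and 0 counts against 6 and 4 counts. That difference passed the test (adjusted p = 0.00185), and against a floor of 3 counts per library the level was at least 1.40-fold higher in 7TGP-POS cells.

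KRT86, another hair cortex keratin of type II, rose in MDA-MB-231 by a smaller amount. It was at 0.963 and 0.833 CPM in 7TGP-NEG and 5.02 and 3.56 CPM in 7TGP-POS libraries in low serum, and at 3.79 and 3.61 CPM and 11.7 and 10.3 CPM in standard serum. The groups did not overlap, with log2 fold changes of 2.26 ± 0.25, adjusted p = 6.34e-10 and 1.57 ± 0.16, adjusted p = 3.78e-07. In MDA-MB-436 the gene lay lower in 7TGP-POS cells. It was at 2.73 and 1.86 CPM against 1.21 and 1.26 CPM in low serum (-0.91 ± 0.25, adjusted p = 0.00229), and at 2.15 and 2.70 CPM against 1.71 and 1.94 CPM in standard serum (-0.43 ± 0.19, adjusted p = 0.0662). How far reads of KRT81 and KRT86 were counted for each other, given their identical windows, was not tested. KRT87P, an annotated pseudogene, had 7 and 5 counts in the MDA-MB-231 7TGP-POS libraries of low serum, 29 and 31 in those of standard serum, and 0 or 1 in every other library.

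**Figure D2:**
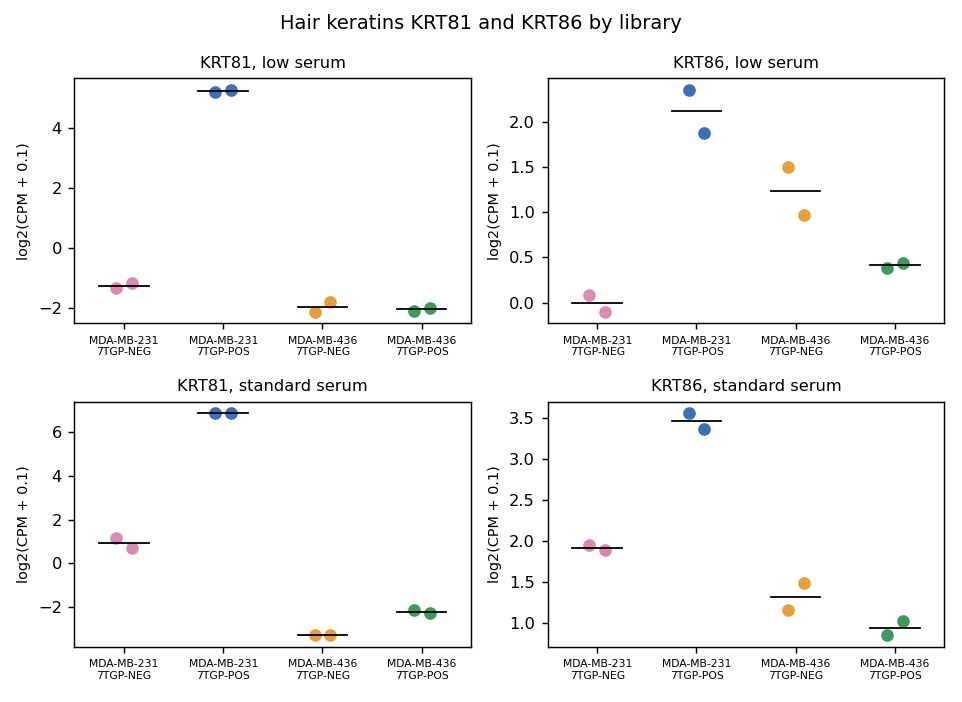
KRT81 and KRT86 in low and standard serum, as log2(CPM + 0.1) on the vertical axis, with 1 point for each library, a line at the mean of the 2 replicates, and the 4 cell groups on the horizontal axis. The MDA-MB-231 7TGP-POS points lie above all other points in each panel, for KRT81 at 36.4 and 38.6 CPM in low serum and 118 and 117 CPM in standard serum.

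Type I hair keratins, the partners of the type II hair keratins in a filament, stayed at low levels. KRT34 was the highest of them. In MDA-MB-231 it was at 0.815 and 0.795 CPM in 7TGP-NEG against 1.20 and 1.02 CPM in 7TGP-POS libraries in low serum (0.47 ± 0.32, adjusted p = 0.267). The rise in standard serum was from 3.13 and 2.52 CPM to 4.79 and 4.35 CPM (0.69 ± 0.20, adjusted p = 0.0110). In MDA-MB-436 it fell instead. Its levels were 4.87 and 5.24 CPM against 1.37 and 0.851 CPM in low serum (-2.16 ± 0.21, adjusted p = 1.75e-11) and 1.91 and 2.56 CPM against 1.36 and 1.71 CPM in standard serum (-0.56 ± 0.22, adjusted p = 0.0378). KRT39, a type I keratin of the hair cuticle, had 0 to 8 counts in a low serum library and fewer in standard serum. The other hair keratins that passed the filter, KRT32, KRT33B, KRT38 and KRT83, had at most 11 counts in a library, and none passed the test in any comparison.

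As a class, hair keratins summed to 2.93 ± 0.184 TPM in MDA-MB-231 7TGP-NEG and 42.3 ± 3.80 TPM in 7TGP-POS cells in low serum, or 0.202% and 4.20% of keratin TPM. In standard serum the sums were 14.6 ± 1.39 and 234 ± 1.63 TPM, or 0.701% and 11.7%. Most of the class in MDA-MB-231 7TGP-POS cells was KRT81. In MDA-MB-436 the class summed to 11.7 ± 1.05 and 3.79 ± 0.255 TPM in low serum, with 9.07 ± 1.85 and 7.41 ± 1.43 TPM in standard serum. These sums were not tested.

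The simple epithelial keratins moved far less, and in MDA-MB-231 KRT8, KRT18 and KRT19 were all lower in 7TGP-POS cells in both conditions. KRT8, the type II chain of simple epithelia, was at 672 and 717 CPM in 7TGP-NEG against 489.6 and 522 CPM in 7TGP-POS libraries in low serum. Its level in standard serum was 500.0 and 483 CPM against 311 and 276 CPM. It fell by 0.46 ± 0.05 (adjusted p = 1.57e-09) and by 0.75 ± 0.10 (adjusted p = 4.36e-05) on the log2 scale. KRT18, its type I partner, was at 171 and 167 CPM against 139 and 135 CPM in low serum (-0.31 ± 0.06, adjusted p = 2.85e-05). It was at 339.6 and 321 CPM against 257 and 239.9 CPM in standard serum (-0.41 ± 0.08, adjusted p = 0.000309). Both partners therefore fell in this line, each by less than the DEG threshold.

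KRT19, a type I keratin of simple epithelia with a very short tail, was the most abundant keratin of MDA-MB-231. In low serum it was at 893 and 959 CPM in 7TGP-NEG and 620.2 and 642 CPM in 7TGP-POS libraries (-0.55 ± 0.05, adjusted p = 3.04e-10). Standard serum gave 773 and 724 CPM and 661 and 624 CPM (-0.22 ± 0.08, adjusted p = 0.0366). KRT7, the other type II keratin of simple epithelia, was at 229.7 and 245 CPM against 293 and 282 CPM in low serum, a rise by edgeR (0.28 ± 0.05, adjusted p = 2.21e-05). On the deposited TPM the groups overlapped, at 122 and 132 TPM against 146 and 122 TPM, and limma on log2(TPM + 0.1) gave 0.07, adjusted p = 0.669. In standard serum KRT7 was at 273 and 278 CPM against 306 and 313 CPM, which did not pass (0.17 ± 0.08, adjusted p = 0.133).

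In MDA-MB-436 the simple epithelial keratins changed little. In low serum KRT8 was at 617 and 623 CPM in 7TGP-NEG against 775 and 716 CPM in 7TGP-POS libraries (0.27 ± 0.05, adjusted p = 3.39e-05). On the deposited TPM these KRT8 groups overlapped, at 373 and 341 TPM against 353 and 369 TPM. KRT18 was at 184 and 196 CPM against 228 and 199 CPM (0.17 ± 0.05, adjusted p = 0.00928), and its sign turned on the deposited TPM, to -0.08 (adjusted p = 0.541 by limma on log2(TPM + 0.1)). The TPM scale moved the median of all genes by -0.26 in this comparison and by -0.195 in the MDA-MB-231 comparison in low serum. KRT7 fell from 36.8 and 38.5 CPM to 27.4 and 24.7 CPM (-0.53 ± 0.06, adjusted p = 3.79e-09). In standard serum KRT7 (-0.01 ± 0.09, adjusted p = 0.918), KRT8 (-0.15 ± 0.10, adjusted p = 0.220) and KRT18 (0.06 ± 0.08, adjusted p = 0.511) did not pass the test.

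**Figure D3:**
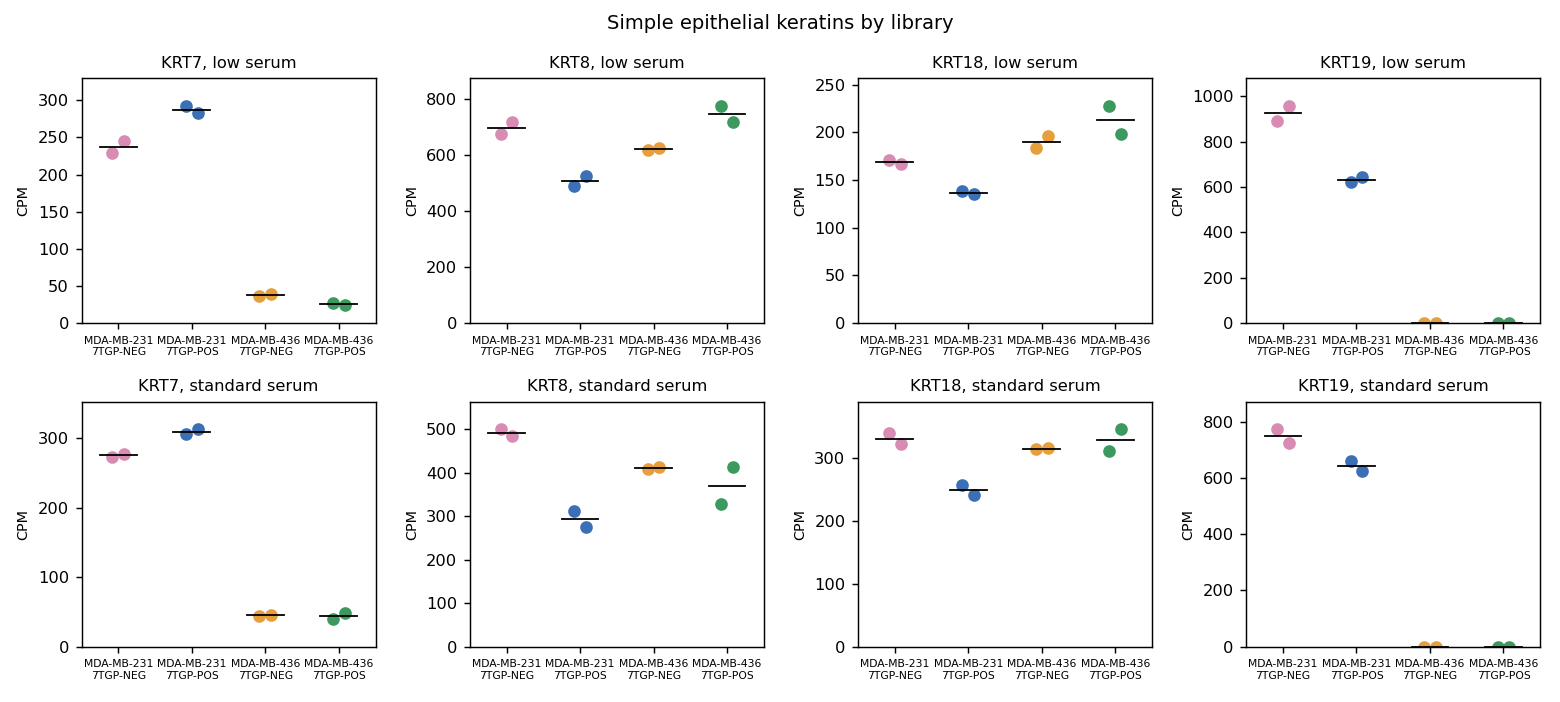
The simple epithelial keratins KRT7, KRT8, KRT18 and KRT19 in low and standard serum, in CPM on a linear axis from 0, with 1 point for each library, a line at the mean of the 2 replicates, and the 4 cell groups on the horizontal axis. KRT8, KRT18 and KRT19 lie lower in MDA-MB-231 7TGP-POS than in 7TGP-NEG cells, and KRT19 lies at the bottom of the axis in MDA-MB-436.

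The balance of the KRT8 and KRT18 partners differed between the data sets. KRT8 was at 2.04 to 2.76 times the TPM of KRT18 in the low serum libraries and at 0.676 to 0.968 times in those of standard serum. Library preparation, days of culture and serum all differ between these data sets and cannot be told apart. Over all keratins, type II chains held 31.8% of keratin TPM in MDA-MB-231 7TGP-NEG and 40.0% in 7TGP-POS cells in low serum, with 29.8% and 36.5% in standard serum. In MDA-MB-436 the shares were 68.9% and 70.1%, then 52.9% and 55.5%.

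Among basal keratins, KRT5 and KRT15 were called higher in 7TGP-POS cells of MDA-MB-436, at low levels. KRT5, the type II chain of the basal layer, had 2 and 1 counts in 7TGP-NEG and 19 and 23 in 7TGP-POS libraries in low serum, and 0 and 3 counts against 12 and 11 in standard serum. It had 0 counts in all 8 MDA-MB-231 libraries. The ratio of 7TGP-POS to 7TGP-NEG was 14.3 (95% exact counting interval 4.57 to 72.1, adjusted p = 2.20e-05) in low serum. It was 6.52 (1.97 to 33.9, adjusted p = 0.0179) in standard serum, a call that ended with DESeq2, with limma on log2(TPM + 1), without 7TGP-NEG replicate 1 and without either 7TGP-POS replicate. KRT5 passed the filter on low counts through the MDA-MB-436 7TGP-POS libraries, so its call and ratio are a description, and these intervals cover counting error only. KRT15, a type I keratin of basal cells, rose from 0.705 and 0.557 CPM to 1.91 and 2.92 CPM in low serum (1.90 ± 0.27, adjusted p = 1.13e-07). Standard serum gave 0.174 and 0.0992 CPM against 0.288 and 0.331 CPM (1.18 ± 0.44, adjusted p = 0.0377), and that call ended with DESeq2, with genes of every biotype, with limma on TPM, without 7TGP-NEG replicate 2 and without either 7TGP-POS replicate.

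In MDA-MB-231 KRT15 was at higher levels and moved little. It fell from 9.33 and 10.6 CPM to 7.68 and 7.70 CPM in low serum (-0.37 ± 0.13, adjusted p = 0.0224) and rose from 9.30 and 9.78 CPM to 12.2 and 13.8 CPM in standard serum (0.45 ± 0.13, adjusted p = 0.0141). KRT14, the type I partner of KRT5, was below 1 CPM in every library. Its counts in MDA-MB-436 in low serum were 16 and 10 in 7TGP-NEG and 1 and 6 in 7TGP-POS libraries (-1.82 ± 0.68, adjusted p = 0.0228). This call ended with DESeq2, with limma on log2(TPM + 1) and without replicate 1 of either group. In MDA-MB-231 KRT14 had 12 and 7 counts against 11 and 23 in low serum (0.90 ± 0.51, adjusted p = 0.173), and in standard serum it had 2 to 7 counts in any library.

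KRT16 and KRT17, keratins of wounds and stress, were found mainly in MDA-MB-436. KRT17, a type I keratin switched on after injury and common in basal-like breast tumours, rose there from 13.6 and 14.2 CPM to 22.6 and 19.9 CPM in low serum (0.62 ± 0.10, adjusted p = 1.09e-06). Standard serum gave 6.85 and 8.51 CPM against 3.84 and 8.13 CPM, with overlapping groups (-0.38 ± 0.32, adjusted p = 0.389). In MDA-MB-231 it rose in low serum from 5 and 2 counts to 14 and 17 counts (2.17 ± 0.52, adjusted p = 0.000806), at under 1 CPM. That call ended with limma on log2(TPM + 1). With standard serum KRT17 had 4 and 3 counts against 5 and 4 in this line and was not a DEG.

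KRT16, a type I keratin of wounded epidermis, fell in 7TGP-POS cells of MDA-MB-436. It went from 102 and 70 counts to 55 and 47 counts in low serum (-0.72 ± 0.22, adjusted p = 0.00606). In standard serum it went from 1.45 and 1.12 CPM to 0.411 and 0.612 CPM (-1.34 ± 0.31, adjusted p = 0.00169). The call in standard serum ended with DESeq2 and with limma on log2(TPM + 1). KRT6A, its type II partner, had 12 and 16 counts in 7TGP-NEG and 2 and 0 in 7TGP-POS libraries in low serum (adjusted p = 0.000611). The ratio of 7TGP-NEG to 7TGP-POS was 13.7 (95% exact counting interval 3.46 to 119). KRT6A passed the filter on low counts through the MDA-MB-436 7TGP-NEG libraries, so its call and ratio are a description. The interval covers counting error only. In standard serum KRT6A had 7 and 5 counts against 2 and 3 (adjusted p = 0.159). In MDA-MB-231 neither KRT6A nor KRT16 passed the test between sublines.

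KRT80, a type II keratin of many differentiating epithelia, was at 30.5 to 70.6 TPM in the low serum libraries and 41.0 to 234 TPM in those of standard serum. In low serum it rose by edgeR in both lines, from 61.2 and 61.8 CPM to 81.0 and 84.1 CPM in MDA-MB-231 (0.42 ± 0.06, adjusted p = 2.96e-08) and from 96.9 and 94.6 CPM to 121 and 119 CPM in MDA-MB-436 (0.33 ± 0.05, adjusted p = 1.09e-06). On the deposited TPM neither low serum difference passed. Values were 30.5 and 31.2 TPM against 38.0 and 34.0 TPM in MDA-MB-231 (limma on log2(TPM + 0.1), 0.22, adjusted p = 0.144) and 67.4 and 59.5 TPM against 63.5 and 70.6 TPM, which overlap, in MDA-MB-436 (0.08, adjusted p = 0.613). In standard serum it fell in MDA-MB-231, from 76.1 and 70.7 CPM to 57.0 and 51.8 CPM (-0.43 ± 0.08, adjusted p = 0.000238). In MDA-MB-436 it rose from 134 and 136 CPM to 241 and 252 CPM (0.87 ± 0.07, adjusted p = 3.00e-08). The direction in MDA-MB-231 by edgeR was thus opposite in the 2 data sets, which were not tested against each other.

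KRT10, the type I keratin of suprabasal epidermis, did not pass the test between sublines in low serum, at 2.41 to 5.29 CPM. In standard serum it rose in MDA-MB-231 from 20.6 and 22.9 CPM to 27.2 and 27.9 CPM (0.34 ± 0.11, adjusted p = 0.0186) and did not pass in MDA-MB-436 (-0.09 ± 0.11, adjusted p = 0.516). KRT79 in MDA-MB-436 had 0 and 0 counts against 2 and 3 in low serum and was called (adjusted p = 0.0474). Both groups lay at or under the floor of 3 counts, so no fold is given, and the call ended without any one of the 8 libraries. It also ended with DESeq2, with limma on TPM, with no filter on low counts and with a replicate block. The remaining keratins, KRT2, KRT23, KRT27, KRT75 and KRT78, had at most 12 counts in a library and did not pass between sublines.

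**Figure D4:**
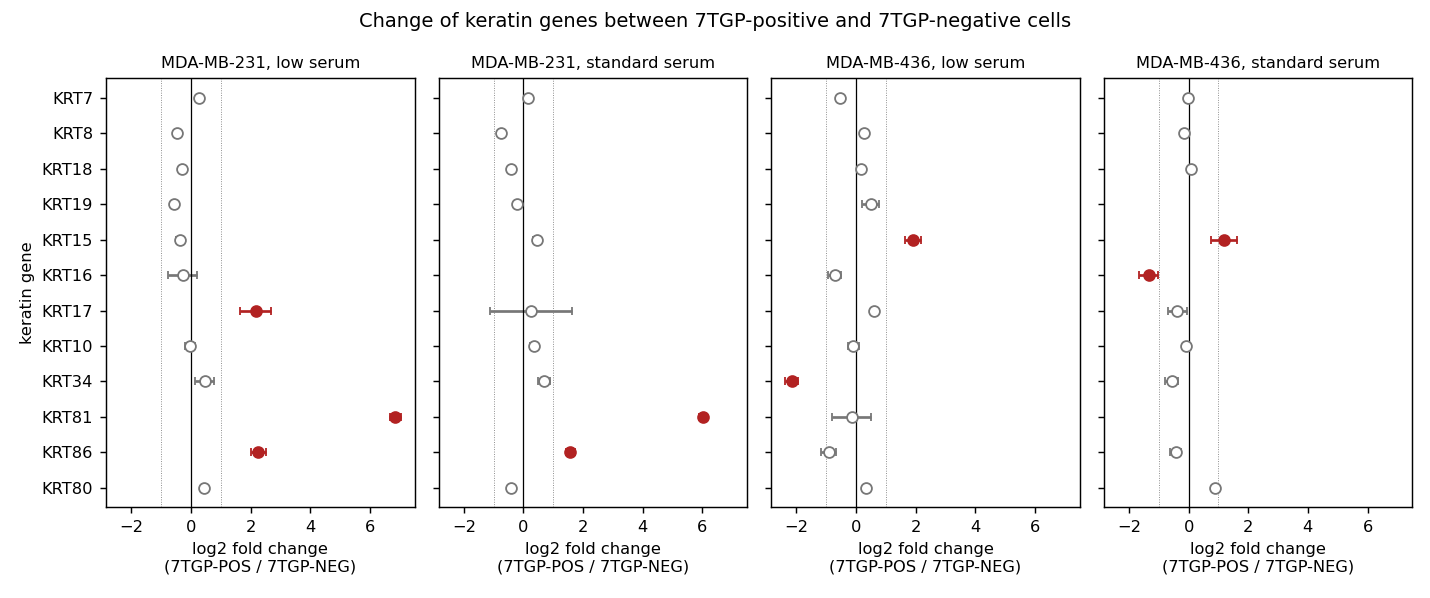
Log2 fold change between 7TGP-POS and 7TGP-NEG cells (horizontal axis, shared by all panels) of the 12 keratins with a mean of at least 1 TPM in any group (vertical axis), in MDA-MB-231 and MDA-MB-436 in low and standard serum. Filled red points are DEGs, open grey points are not, bars are 1 SE, dotted lines mark a log2 fold change of 1 in either direction, and a keratin is left out where no library of a group had more than 3 counts (KRT81 in MDA-MB-436 in standard serum among them). KRT81 and KRT86 stand to the right in both MDA-MB-231 panels, and KRT34 to the left in MDA-MB-436 in low serum.

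The keratin make-up of the lines was compared in 7TGP-NEG cells. In low serum 12 of 22 keratins were DEGs, against 41.9% of all genes, with 6 higher in MDA-MB-231 (against 20.5%) and 6 in MDA-MB-436 (against 21.4%). In standard serum 10 of 23 were, against 46.7%, with 6 higher in MDA-MB-231 (against 21.3%) and 4 in MDA-MB-436 (against 25.4%). By the adjusted p alone the counts were 16 of 22 (against 79.2%) and 13 of 23 (against 78.8%). The shares of DEGs lie near those of all genes.

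KRT19 separated the lines most. In low serum it was at 893 and 959 CPM in MDA-MB-231 and 0.705 and 0.631 CPM in MDA-MB-436 (10.42 ± 0.11, adjusted p = 3.93e-39). Standard serum gave 24702 and 20670 counts against 0 and 1, and 0 in both MDA-MB-436 7TGP-POS libraries. KRT19 was thus hardly detectable in MDA-MB-436, while KRT8 and KRT18 differed far less between the 7TGP-NEG sublines. KRT18 was at 114 ± 1.01 TPM in MDA-MB-231 and 170 ± 4.22 TPM in MDA-MB-436 in low serum (by edgeR -0.17 ± 0.06, adjusted p = 0.00614). Its levels in standard serum were 343 ± 17.9 and 365 ± 7.88 TPM. KRT8 differed by 0.16 ± 0.05, adjusted p = 0.00441 and 0.26 ± 0.10, adjusted p = 0.0275 on the log2 scale. The first of these turned to -0.24 on the deposited TPM (adjusted p = 0.0127 by limma on log2(TPM + 0.1)), a scale that moved the median of all genes by -0.39.

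KRT7 was also higher in MDA-MB-231, by 2.66 ± 0.06, adjusted p = 3.49e-34 in low serum and 2.62 ± 0.09, adjusted p = 4.89e-15 in standard serum. KRT15 was higher there by 3.96 ± 0.21, adjusted p = 8.61e-21 and 6.12 ± 0.25, adjusted p = 6.47e-14. KRT17 and KRT16 lay on the other side. KRT17 was at 0.185 and 0.0757 CPM in MDA-MB-231 against 13.6 and 14.2 CPM in low serum (-6.68 ± 0.25, adjusted p = 6.06e-26), and at 0.125 and 0.105 CPM against 6.85 and 8.51 CPM in standard serum (-6.01 ± 0.63, adjusted p = 9.03e-05). KRT16 differed by -2.70 ± 0.30, adjusted p = 1.35e-10 and -2.92 ± 0.43, adjusted p = 5.05e-06. KRT80 was higher in MDA-MB-436 by less than the DEG threshold (-0.64 ± 0.05, adjusted p = 5.71e-14 and -0.88 ± 0.08, adjusted p = 4.69e-09).

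Hair keratins did not follow 1 direction between the lines. In low serum KRT34 (-2.64 ± 0.23, adjusted p = 1.33e-13) and KRT86 (-1.36 ± 0.27, adjusted p = 2.21e-05) were lower in MDA-MB-231, and KRT81 did not pass (1.02 ± 0.55, adjusted p = 0.0892). In standard serum KRT81 was at least 22.3-fold higher in MDA-MB-231 (adjusted p = 1.51e-10), KRT86 was higher by 0.60 ± 0.18, adjusted p = 0.00475, and KRT34 did not pass (0.33 ± 0.21, adjusted p = 0.148). KRT39 was at least 1.26-fold higher in MDA-MB-231 in low serum and at least 1.06-fold in standard serum. It passed the filter on low counts through MDA-MB-231, so its calls and folds are a description. Both calls ended with limma on log2(TPM + 1) and without either MDA-MB-436 7TGP-NEG replicate. The second also ended with DESeq2, with no filter on low counts and without MDA-MB-231 7TGP-NEG replicate 2.

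A few weakly expressed keratins were detected mainly in a single line. Such a keratin passed the filter on low counts through the line where it was high, so its call and its fold are a description. KRT79, a keratin of the hair follicle opening, had 11 and 11 counts in MDA-MB-231 against 0 and 0 in low serum and 4 and 6 against 0 and 0 in standard serum. It was at least 3.97-fold and 2.08-fold higher there. KRT6A was higher in MDA-MB-436, with a ratio of 25.7 (95% exact counting interval 4.26 to 1053) in low serum and at least 1.64-fold in standard serum. Both calls ended with limma on log2(TPM + 1), and the call in standard serum also with DESeq2. KRT75, of the companion layer of the follicle, was higher in MDA-MB-436 with a ratio of 14.7 (2.29 to 617) in low serum, a call that ended without MDA-MB-231 replicate 2 or MDA-MB-436 replicate 1. In standard serum it was at least 1.08-fold higher, and the call ended without any one of the 4 libraries compared. Both KRT75 calls also ended with DESeq2 and with limma on log2(TPM + 1). KRT27, of the inner root sheath, was called in low serum at 1 and 4 counts against 0 and 0 (adjusted p = 0.0486), with no fold above the floor. The KRT27 call ended without MDA-MB-231 replicate 2 or any MDA-MB-436 library. It also ended with DESeq2, with limma on log2(TPM + 1), with no filter on low counts and with a replicate block.

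The difference between the lines in their response, the log2 fold change between a line's sublines, was tested as an interaction, MDA-MB-231 minus MDA-MB-436. In low serum 7 of 22 keratins passed the DEG threshold, against 11.7% of all genes, 5 above 0 (against 4.72%) and 2 below (against 7.01%). In standard serum 3 of 23 did, against 13.8%, 2 above 0 (against 7.02%) and 1 below (against 6.81%). By the adjusted p alone the counts were 10 of 22 (against 45.7%) and 6 of 23 (against 41.2%). The hair keratins KRT86 and KRT34 passed in both conditions. KRT86 differed by 3.17 ± 0.36, adjusted p = 8.57e-10 and 1.99 ± 0.24, adjusted p = 3.32e-06, and KRT34 by 2.63 ± 0.39, adjusted p = 3.83e-07 and 1.25 ± 0.29, adjusted p = 0.00204. KRT81 differed by 7.00 ± 0.88, adjusted p = 1.14e-08 in low serum. In standard serum MDA-MB-436 7TGP-NEG cells had 0 KRT81 counts, so the fitted difference depends on how the fit treats 0 and is not given (adjusted p = 0.736).

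The abundant simple epithelial keratins also responded differently in the lines, by less than the DEG threshold. In low serum the interaction was -0.72 ± 0.07, adjusted p = 7.07e-11 for KRT8 and -0.47 ± 0.08, adjusted p = 4.39e-06 for KRT18. The values from standard serum were -0.59 ± 0.14, adjusted p = 0.00352 and -0.48 ± 0.11, adjusted p = 0.00148, so both partners were lower in MDA-MB-231 7TGP-POS cells relative to MDA-MB-436. KRT7 differed by 0.80 ± 0.08, adjusted p = 7.29e-11 in low serum and did not pass in standard serum (0.18 ± 0.12, adjusted p = 0.246). KRT80 passed the threshold in standard serum (-1.30 ± 0.11, adjusted p = 2.74e-08) and did not pass in low serum (0.10 ± 0.08, adjusted p = 0.318). KRT15 (-2.28 ± 0.30, adjusted p = 3.56e-08), KRT14 (2.72 ± 0.85, adjusted p = 0.00787), KRT17 (1.56 ± 0.55, adjusted p = 0.0175) and KRT19 (-1.05 ± 0.29, adjusted p = 0.00270) passed in low serum. The KRT14 call ended without MDA-MB-231 7TGP-POS replicate 2 or MDA-MB-436 7TGP-POS replicate 1, and the KRT17 call without replicate 2 of either MDA-MB-231 subline. The KRT19 call ended without MDA-MB-231 7TGP-NEG replicate 2, MDA-MB-436 7TGP-NEG replicate 2 or MDA-MB-436 7TGP-POS replicate 1. It also ended with limma on log2(TPM + 1) and on log2(TPM + 0.1). With limma on log2(TPM + 1) the KRT14, KRT15 and KRT17 calls ended too.

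Genes that work with keratins were read from lists of desmosome, cytolinker and hemidesmosome, cornified envelope, other intermediate filament, and epithelial and hair transcription factor genes. In MDA-MB-231 none of 12 desmosome genes was a DEG in low serum and none of 10 in standard serum. The counts of this line stand beside shares of all genes of 3.5% higher and 2.4% lower in low serum, with 4.96% and 2.72% in standard serum. Of 10 cytolinker and hemidesmosome genes, 2 fell and none rose in each condition. ITGB4, the integrin chain that anchors keratin filaments at hemidesmosomes, fell by 1.69 ± 0.05 (adjusted p = 1.45e-26) and 1.61 ± 0.09 (adjusted p = 2.03e-10). PPL, the linker periplakin, fell by 1.08 ± 0.09 (adjusted p = 1.12e-13) and 1.82 ± 0.14 (adjusted p = 1.46e-08). The median of this list was -0.44 and -0.49, beside -0.01 and 0.00 over all genes.

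Of the other intermediate filament genes in MDA-MB-231, 1 of 14 rose and 2 fell in low serum, and 0 of 12 rose and 2 fell in standard serum. VIM was at 2454 and 2388 TPM in 7TGP-NEG against 1078 and 954 TPM in 7TGP-POS libraries in low serum (-1.05 ± 0.05, adjusted p = 2.69e-20), and at 3882 and 3542 TPM against 1897 and 1831 TPM in standard serum (-1.03 ± 0.08, adjusted p = 1.17e-08). NES, nestin, fell by 1.16 ± 0.06 and 1.28 ± 0.12. The ratio of all keratin TPM to VIM TPM was 0.600 ± 0.0421 in 7TGP-NEG and 0.990 ± 0.000223 in 7TGP-POS cells in low serum, with 0.560 ± 0.0105 and 1.07 ± 0.00246 in standard serum. VIM is 1 of 8 mesenchymal markers, of which, as DEGs, 0 rose and 1 fell in low serum while 1 rose and 2 fell in standard serum. Their median log2 fold change was 0.29 and 0.22, with 5 of 8 above 0 in each condition. The 10 epithelial markers in the same libraries summed to 84.9 and 86.6 TPM against 81.0 and 67.0 TPM in low serum and 136 and 146 TPM against 163 and 175 TPM in standard serum. CLDN7, a tight junction claudin, made up much of that sum, at 40.8 and 41.8 TPM against 40.6 and 31.1 TPM in low serum (-0.01 ± 0.07, adjusted p = 0.930) and 81.3 and 90.6 TPM against 119.7 and 133 TPM in standard serum (0.51 ± 0.09, adjusted p = 0.000212). Of 9 epithelial markers tested, 0 rose and 1 fell as DEGs in each condition, and their median log2 fold change was -0.01 in low and -0.18 in standard serum. Their part in the keratin values was not tested.

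Among 16 genes listed as epithelial and hair transcription factors, 1 rose and 2 fell in MDA-MB-231 in each condition. TP63, which drives basal keratin genes in skin and breast, went from 5.29 ± 0.527 to 25.4 ± 1.91 CPM (mean ± SD, n = 2) in low serum (2.26 ± 0.11, adjusted p = 6.95e-20). Standard serum showed a rise from 0.568 ± 0.139 to 7.21 ± 0.495 CPM (3.67 ± 0.25, adjusted p = 2.12e-09). KRT5 had 0 counts in these libraries and KRT14 stayed below 1 CPM. The listed genes that fell in low serum were MSX2 (-1.71 ± 0.34, adjusted p = 5.68e-05) and GRHL1 (-1.51 ± 0.31, adjusted p = 0.000106). In standard serum they were GRHL1 (-2.15 ± 0.29, adjusted p = 1.38e-05) and ESRP1 (-1.08 ± 0.32, adjusted p = 0.0130). ESRP1 is a splicing regulator rather than a transcription factor, and it is also among the epithelial markers. Of the cornified envelope genes, 0 of 7 were DEGs in low serum. In standard serum 1 of 8 was, SBSN (3.32 ± 0.37, adjusted p = 4.15e-06).

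In MDA-MB-436, 1 desmosome gene rose and 1 fell in each condition, of 12 tested with low and 10 with standard serum. The counts of this line stand beside shares of all genes of 6.52% higher and 4.03% lower in low serum, with 6.47% and 6.06% in standard serum. JUP, plakoglobin, which links desmosomes to keratin filaments, fell from 53.6 ± 0.747 to 19.1 ± 0.545 CPM in low serum (-1.49 ± 0.06, adjusted p = 1.75e-22) and from 59.6 ± 1.82 to 9.53 ± 1.70 CPM in standard serum (-2.65 ± 0.10, adjusted p = 5.88e-13). PKP1, plakophilin, rose by 1.11 ± 0.28 and 1.39 ± 0.44. PPL rose by 1.87 ± 0.07 in low serum (adjusted p = 9.63e-25) and by 0.94 ± 0.09 in standard serum (adjusted p = 2.15e-07), the latter under the DEG threshold, against its fall in MDA-MB-231. The interaction was -2.95 ± 0.11, adjusted p = 2.61e-24 in low and -2.76 ± 0.17, adjusted p = 5.35e-10 in standard serum. Of the other intermediate filament genes, 4 of 14 rose and 1 fell in low serum, and 4 of 12 rose and 0 fell in standard serum. SYNC, syncoilin, was among those that rose (1.01 ± 0.11 and 1.09 ± 0.17). VIM changed by less than the DEG threshold there (0.16 ± 0.05, adjusted p = 0.00732 and 0.49 ± 0.08, adjusted p = 4.77e-05). The ratio of all keratin TPM to VIM TPM in MDA-MB-436 was 1.59 ± 0.0384 in 7TGP-NEG and 1.64 ± 0.0761 in 7TGP-POS cells in low serum. In standard serum it was 1.75 ± 0.0722 and 1.35 ± 0.0705, lower in 7TGP-POS cells, while in MDA-MB-231 it was higher. These ratios were not tested. Of the 16 genes on the transcription factor list 2 rose and 2 fell in low serum, and 1 rose and 3 fell in standard serum. Of the cornified envelope genes 0 of 7 were DEGs in low serum, and 2 of 8 fell in standard serum.

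Between the lines, 7 of 10 cytolinker and hemidesmosome genes were higher in MDA-MB-231 7TGP-NEG cells and 0 lower in low serum, and 6 were higher and 1 lower in standard serum. Over all genes, 20.5% were higher and 21.4% lower in MDA-MB-231 in low serum, with 21.3% and 25.4% in standard serum. The list's median log2 fold change was 1.64 and 1.56, beside 0.01 and -0.09 over all genes. ITGA6 (3.997 ± 0.06 and 4.11 ± 0.09) and ITGB4 (1.97 ± 0.05 and 2.04 ± 0.09), the chains of the hemidesmosome integrin, were among them. Of the 16 genes on the transcription factor list 6 were higher and 6 lower in low serum, and 7 higher and 5 lower in standard serum. EHF was higher (3.71 ± 0.07 and 5.52 ± 0.13) and ELF3 lower (-5.07 ± 0.12 and -3.92 ± 0.12) in MDA-MB-231.

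The core of the Tcf site, ATCAAAG, was searched on both strands in RefSeq promoter windows of GRCh38.p14, from 250 bases before to 50 bases after each gene's start. It was in 919 of 35116 promoters (2.62%) and in 1 of the 34 keratin promoters of that table (2.94%), that of KRT2. Of the 26 measured keratins 12 had a window there, and KRT81, KRT86 and KRT19 were not among them. A match of letters is not a binding site, and its absence from a window says nothing about the factor.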

How the data were processed

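RNA-seq of 16 libraries was used. According to the sample labels and the study's methods, reads were aligned to hg19 with STAR (2.6.1a in the submitters' processing notes), and the authors deposited raw gene counts from STAR with the Gencode v19 annotation. The strand setting of the counting and the way the deposited TPM values were made are not given in the sources used here. For low serum the methods describe rRNA depletion, while the labels name a poly(A) kit for all libraries. Genes were matched by Ensembl ID to a GRCh37 annotation, with 55538 of 57820 IDs matched and 19404 protein-coding.

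A protein-coding gene was tested where the 8 libraries of the condition together held 10 or more counts, which left 16069 genes for low serum and 15414 for standard serum. One robust quasi-likelihood model with TMM normalization was fitted to the 4 groups of each serum (edgeR 4.0.16, R 4.3.3), and p-values were adjusted by Benjamini and Hochberg. The script was tested on simulated data. A DEG had an adjusted p under 0.05 and a log2 fold change of 1 or more in either direction. A floor of 3 counts per library was used for folds against a group at 0. Levels between genes were read from TPM. The named keratins were those that were DEGs in any comparison or had a mean of at least 1 TPM in any group, and at most 3 genes per list and comparison were named, by adjusted p. The members and lists were chosen with earlier results of these data known. Alternatives used DESeq2 1.42.0, limma 3.58.1 on log2(TPM + 1) and log2(TPM + 0.1), other filters, every gene biotype, a replicate block and leaving out each library. With 2 replicates per group, p-values measure the spread between these samples. Each line gave a single reporter-positive and a single reporter-negative subline, and the replicates of a group came from the same subline. Whether a difference goes with reporter status or with the particular subline was not tested. Exon sequences of the hair keratins are not reported here.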

Additional observations from a re-analysis of the deposited data

Results flagged for a closer look

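The log2 fold change between the 7TGP-POS and 7TGP-NEG subline of a line is called the response here. It was not the same in the cell lines by edgeR's test of the interaction for 7 keratins in low serum. The response of MDA-MB-231 less that of MDA-MB-436 was 7.00 for KRT81, 3.17 for KRT86, 2.72 for KRT14, 2.63 for KRT34, 1.56 for KRT17, -1.05 for KRT19 and -2.28 for KRT15. Of these calls, those of KRT81, KRT86 and KRT34 held under every alternative, and the others did not. In standard serum the difference passed for 3 keratins, at 1.99 for KRT86, 1.25 for KRT34 and -1.30 for KRT80. The hair keratins KRT86 and KRT34 were thus above 0 in both conditions.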

How the results depend on the processing

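Across 2332 values of single keratins under the alternatives, 2234 stayed called or stayed not called, 82 lost the call, 16 gained it and 0 called values changed sign. Directions of values that were not called are not part of this count. Among them, KRT18 in MDA-MB-436 and KRT8 between the lines turned sign on the deposited TPM in low serum. Without the fold threshold, 9 (low) and 9 (standard serum) keratins were called in MDA-MB-231, 13 in MDA-MB-436 in low serum and 6 for the interaction in standard serum. With limma on log2(TPM + 1), 1 keratin was called in MDA-MB-436 in low serum, 0 in standard serum and 3 for the interaction in low serum, a scale that shrinks changes of weakly expressed genes. With log2(TPM + 0.1), 5 were called for the interaction in standard serum. DESeq2 called 1 in MDA-MB-436 in standard serum, where KRT15, KRT16 and KRT5 were lost. With edgeR's filterByExpr, 6 were called between the lines in standard serum, since KRT39, KRT6A, KRT75 and KRT79 were not kept by the filter. Where the cause is not given, it was not tested. Leaving out 1 library at a time gave, in low serum, 3 to 4 keratin DEGs in MDA-MB-231, 4 to 6 in MDA-MB-436, 10 to 12 between the lines and 5 to 7 for the interaction. In standard serum the ranges were 2 to 2, 2 to 4, 8 to 12 and 3 to 3, and 2 remained in MDA-MB-436 without 7TGP-POS replicate 1. A library left out leaves its group with 1 sample, assumed to vary like the other groups. With a replicate block the counts in low serum were 3, 5, 11 and 7, and in standard serum 2, 4, 10 and 3, in the same order. The deviations of same-numbered replicates correlated at -0.210 to 0.0797 over the pairs of groups in low serum and at -0.0509 to 0.405 in standard serum. In standard serum the correlation between the sublines of a line was 0.405 for MDA-MB-231 and 0.236 for MDA-MB-436. Not every pair was above 0.1 in either condition, so the replicates were not treated as paired in the main fit. The calls of KRT81 and KRT86 in MDA-MB-231 held under all 16 alternatives in both conditions. Depth limits the keratins with few counts (KRT5, KRT6A, KRT14, KRT27, KRT39, KRT75 and KRT79), which carried most of the lost calls.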
